A study of Mus musculus with 10 samples.

Results

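The open chromatin of mouse thymic epithelial cells (TEC) at embryonic day 15 (E15) was set against that at embryonic day 17 (E17). Of the 10 ATAC-seq libraries of the series, 4 were compared, 2 of E15 and 2 of E17, all from wild type C57BL/6 mice. Each library's peak list was cut to as many of its strongest peaks as the shortest list, E17 replicate 1, held, ranked by −log10 q with ties broken by fold enrichment over background. Peaks of the 4 cut lists that overlapped or touched were joined into 122104 regions. The 4233 regions called in both E15 lists and in neither E17 list are called E15-only regions here. The 4190 called in both E17 lists and in neither E15 list are called E17-only regions. They made up 3.47% and 3.43% of all regions. The cells were sorted from thymi digested with Liberase TH and DNase. The labels name TEC as the tissue, nucleosome-free chromatin as the material and no TEC fraction for the embryonic libraries, and they do not say how many embryos were pooled. Nothing in them says that replicates came from separate litters, so p-values below measure only the spread between these samples, which may be technical.

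The thymic epithelium forms the niche in which T cells mature. Foxn1, the transcription factor that the series is about, drives TEC to express the genes that attract, nourish and select thymocytes. As the embryonic thymus grows, TEC of the cortex, which make the thymoproteasome subunit Psmb11, Ccl25 and Dll4, and TEC of the medulla, which depend on RANK (Tnfrsf11a) and CD40 signals and come to express Aire, set themselves apart. ATAC-seq cuts DNA with the transposase Tn5 where chromatin is accessible, and a peak is a stretch with more cuts than the surrounding background. The lists hold peaks without read counts, so read depth is unknown. Where a list has no peak, the site was not among the peaks kept there, which does not make it closed. In a bulk library, fewer cells with an open site cannot be told apart from a weaker signal in each cell.

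The labelled cell type was checked at gene boundaries, that is within 1 kb of either end of a protein-coding gene. All 8 TEC markers (Foxn1, Epcam, Krt8, Krt18, Psmb11, Prss16, Cdh1 and Trp63) had a region there in both E15 lists, and 7 of 8, all but Trp63, in both E17 lists. The 1 E15-only region of Trp63 lay inside the gene, not at its boundary. Of 7 T cell markers 1 was called in each list, always Bcl11b, and none of Cd3e, Cd3d, Cd3g, Ptprc, Rag1 and Rag2 was. Of 5 mesenchyme markers 3 or 4 were called in each list, with Pdgfra, Pdgfrb and Col1a1 in all 4 and Col3a1 in none. Of 4 endothelial markers 2 or 3 were called, with Kdr and Tek in all 4. Of 5 macrophage and dendritic cell markers 1 or 2 were called, with Spi1 in all 4. Of 3 erythroid markers E15 replicate 1 and E17 replicate 2 had 1, E17 replicate 1 had 2 and E15 replicate 2 had all 3. The part of other cell types in the results below was not tested.

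Few specific regions lay in promoters. E15-only regions overlapped the 250 bases upstream of a start site at 79 promoters of 76 genes, and E17-only regions at 44 promoters of 41 genes, out of 21262 promoters in RefSeq's table for GRCm38.p6. That table has entries for 17491 of 21883 protein-coding genes. Genes on lists chosen for thymic epithelium but without a start site in it could not be counted, among them Fosl1, Fgfr1 and Hey1. Those named had a specific region at the gene boundary. Of the other listed genes, 4 had an E15-only region in a promoter (Ccl19, Batf, Dclk1 and Alox5) and 2 an E17-only region (Cdkn1a and Krtdap). Their sequences are shown with those of Onecut1 and Elf5, which were chosen after their values were seen as transcription factors whose promoter stood in 1 set. Each runs 5′ to 3′ on the gene's strand and ends at the base before the start site, and capitals mark the bases covered by the specific region.

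Ccl19 encodes a chemokine of the medulla that binds CCR7, and its promoter is at chr4:42756366-42756615 on the minus strand. Batf encodes an AP-1 family factor, at chr12:85686470-85686719 on the plus strand. Dclk1 encodes a microtubule-associated kinase that marks tuft cells, at chr3:55461478-55461727 on the plus strand. This start site lies inside the gene and not at its boundary. Alox5 encodes the lipoxygenase of leukotriene synthesis, at chr6:116461179-116461428 on the minus strand. Onecut1 encodes a factor of endodermal organs, at chr9:74861671-74861920 on the plus strand. These are the E15-only promoters.
Ccl19 promoter: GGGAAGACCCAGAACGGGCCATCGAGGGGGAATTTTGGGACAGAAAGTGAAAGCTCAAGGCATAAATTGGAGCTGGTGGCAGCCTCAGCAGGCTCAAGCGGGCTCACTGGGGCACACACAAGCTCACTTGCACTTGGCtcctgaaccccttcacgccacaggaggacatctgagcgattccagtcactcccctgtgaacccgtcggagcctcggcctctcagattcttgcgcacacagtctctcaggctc
Batf promoter: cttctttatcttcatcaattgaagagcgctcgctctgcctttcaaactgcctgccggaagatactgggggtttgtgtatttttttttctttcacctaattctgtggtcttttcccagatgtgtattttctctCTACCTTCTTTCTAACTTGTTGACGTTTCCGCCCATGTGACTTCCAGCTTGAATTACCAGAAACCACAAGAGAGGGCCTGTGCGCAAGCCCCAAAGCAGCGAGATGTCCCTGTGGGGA
Dclk1 promoter: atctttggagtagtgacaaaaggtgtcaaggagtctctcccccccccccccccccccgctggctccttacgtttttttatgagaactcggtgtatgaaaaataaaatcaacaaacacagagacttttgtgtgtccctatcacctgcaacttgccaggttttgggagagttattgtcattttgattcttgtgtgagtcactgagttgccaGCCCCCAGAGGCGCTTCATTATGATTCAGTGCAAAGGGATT
Alox5 promoter: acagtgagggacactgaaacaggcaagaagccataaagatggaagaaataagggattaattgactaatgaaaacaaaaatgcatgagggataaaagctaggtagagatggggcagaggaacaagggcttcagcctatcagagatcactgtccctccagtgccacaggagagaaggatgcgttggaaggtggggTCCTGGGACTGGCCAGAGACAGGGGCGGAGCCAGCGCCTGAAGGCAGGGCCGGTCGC
Onecut1 promoter: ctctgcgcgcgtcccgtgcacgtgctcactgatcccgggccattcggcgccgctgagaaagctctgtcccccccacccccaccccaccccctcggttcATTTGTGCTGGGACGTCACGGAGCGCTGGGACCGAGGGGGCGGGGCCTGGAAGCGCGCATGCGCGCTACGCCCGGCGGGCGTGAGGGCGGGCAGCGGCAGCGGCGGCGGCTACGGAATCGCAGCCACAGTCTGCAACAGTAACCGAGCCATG

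Cdkn1a encodes the cell cycle inhibitor p21, and its promoter is at chr17:29090729-29090978 on the plus strand. Krtdap encodes a keratinocyte differentiation protein, at chr7:30787655-30787904 on the plus strand. Elf5 encodes an epithelial ETS factor, at chr2:103423818-103424067 on the plus strand. These are the E17-only promoters.
Cdkn1a promoter: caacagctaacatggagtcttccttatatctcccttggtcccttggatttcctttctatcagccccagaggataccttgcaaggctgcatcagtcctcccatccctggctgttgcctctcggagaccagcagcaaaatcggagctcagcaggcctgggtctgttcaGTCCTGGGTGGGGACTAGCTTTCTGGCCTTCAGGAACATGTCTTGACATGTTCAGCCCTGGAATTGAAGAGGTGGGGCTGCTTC
Krtdap promoter: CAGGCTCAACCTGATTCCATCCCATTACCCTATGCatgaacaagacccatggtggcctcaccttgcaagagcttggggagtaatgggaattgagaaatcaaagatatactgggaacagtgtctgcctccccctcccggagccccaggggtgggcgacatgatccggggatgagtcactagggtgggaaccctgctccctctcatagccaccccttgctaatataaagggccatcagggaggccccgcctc
Elf5 promoter: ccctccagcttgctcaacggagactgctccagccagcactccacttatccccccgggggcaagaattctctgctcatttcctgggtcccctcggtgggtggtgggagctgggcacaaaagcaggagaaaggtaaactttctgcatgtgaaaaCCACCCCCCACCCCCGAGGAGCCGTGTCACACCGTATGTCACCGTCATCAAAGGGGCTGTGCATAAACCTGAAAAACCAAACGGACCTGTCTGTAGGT

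The regions behind these sequences were weak to middling peaks. At Ccl19 the region was 301 bp wide, with −log10 q of 2.90 and 3.88 in E15 replicates 1 and 2. It had no peak in either complete E17 list, and 3 of the 6 lists of day 6 TEC called it. At Batf the region was 321 bp wide (−log10 q 2.92 and 2.21), at Alox5 it had 2.37 and 2.69, and at Dclk1 3.13 and 4.40. The complete list of E17 replicate 2 held a peak at each, below its length limit. Onecut1 had the firmest of the printed E15-only promoters, with −log10 q of 4.86 and 5.28, and the complete list of E17 replicate 2 held a peak there too, below its length limit. At Cdkn1a the 97 bp region had −log10 q of 2.36 and 5.43 in E17 replicates 1 and 2, at Krtdap 1.79 and 4.18, and at Elf5 2.27 and 5.35. None of these 3 had a peak in either complete E15 list. q-values of different libraries follow their own depth, so these are read within a library only.

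Short motifs were searched on both strands of the same 250 bases. The AP-1 motif TGANTCA was found in 6.33% of E15-only promoters (5 of 79), 18.2% of E17-only promoters (8 of 44), 3.52% of promoters in regions of all 4 lists and 6.13% of every promoter. The 8 include Mrps5 (base 68) and Zfp661 (base 96), whose motif positions mirror each other as in overlapping promoters read from opposite strands. These may be 1 site. Besides these 4 sets, promoters with no region held the motif in 9.72%. Dclk1 held it at bases 192 and 231, of which the latter lies in the accessible bases, and Krtdap at base 170, outside them. The letters CATGTC, found within the element bound by p53 and p63, were in 3.80%, 6.82%, 4.61% and 6.50% of the same 4 sets, and Cdkn1a held them at bases 203 and 211 inside its region. GACGC, the core that Foxn1 binds, was in 21.5%, 11.4%, 41.8% and 27.7%. GGGCGG, bound by KLF and SP factors, was in 57.0%, 45.5%, 64.02% and 42.6%. GC content differed between the sets, with medians of 57.6%, 55.8%, 61.6% and 55.6%. These shares are descriptions of few promoters, and a match is not a bound site.

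The 4 lists differed in what the equal length removed. The deposited lists held 105204 and 101357 peaks for E15 and up to 151646 for E17. Cutting dropped 18.0% and 14.9% of the E15 lists, 0% of E17 replicate 1 and 43.1% of E17 replicate 2. The last peak kept had −log10 q of 2.27, 2.15, 1.001 and 3.68. In E17 replicate 2 the first peak dropped had 3.683. E17 replicate 1 thus entered with all of its weakest peaks, while E17 replicate 2 lost the most. The weakest E15-only region, near the Polycomb gene Eed, had −log10 q of 2.55 and 2.15, and the weakest E17-only region, in Med12l, 2.65 and 3.68.

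Most regions were called in a single list or in all lists. All 4 lists called 56405 regions, 3 lists 15388 and 1 list 33132. Exactly 2 lists called 17179. Besides the E15-only and E17-only regions, 8756 of these paired 1 E15 with 1 E17 list, between 1811 and 2598 for each of the 4 such pairs. Both age-matched pairs thus held more regions than any mixed pair. The bases covered by both E15 lists were 59.0% of those covered by either. For the E17 pair this overlap was 54.9%, and for the 4 pairs across ages 54.0% to 54.8%. The E15 replicates therefore overlapped more with each other than with E17, while the E17 replicates overlapped with each other about as much as with E15.

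**Figure D1:**
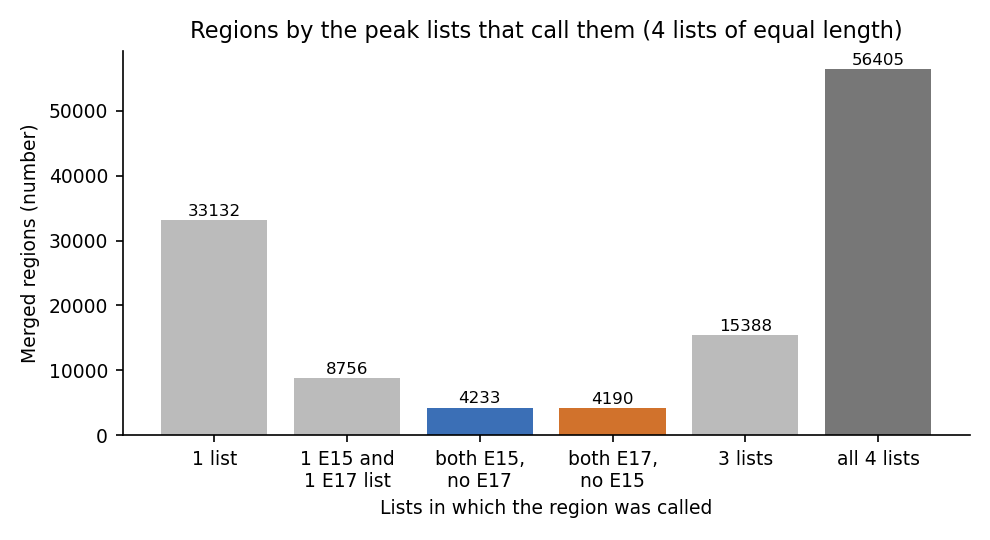
Number of merged regions (y axis) by the peak lists that call them (x axis), with 4 lists of equal length. The E15-only (blue, 4233) and E17-only (orange, 4190) bars are of near equal height and are small beside the 56405 regions in all 4 lists.

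Specific regions lay away from genes' ends. At the full equal length, 5.22% of E15-only and 6.37% of E17-only regions were at a gene boundary, against 23.5% of regions called in all 4 lists. Defined without E17 replicate 1, the E15-only share was 8.38%. Inside genes lay 46.4% of E15-only and 50.9% of E17-only regions, and 48.3% and 42.7% lay elsewhere. E15-only regions were more often remote: 18.5% were over 100 kb from any protein-coding gene, against 10.3% of E17-only regions and 8.58% of those in all 4 lists. They also lay in gene-poorer surroundings, with a median of 6 protein-coding genes within 500 kb on either side, against 10 for E17-only regions and 10 for regions of all 4 lists.

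A similar contrast was seen on some chromosomes and not on others. Chromosome 7, with the most protein-coding genes (2030), had 3.16% E15-only and 3.67% E17-only regions. Chromosome 17 (1059 genes) had 3.12% and 3.14%. On the gene-dense chromosome 11, 173 of 7645 regions were E15-only (2.26%) and 330 E17-only (4.32%), and on chromosome 19 it was 76 and 150 of 3200 (2.38% and 4.69%). On the X chromosome 161 of 3071 were E15-only (5.24%) and 75 E17-only (2.44%), and the labels give no sex for the embryos. Per library, chromosome 11 held 6.19% and 6.22% of peaks for E15, against 6.69% and 6.63% for E17. The X chromosome held 2.37% and 2.46% against 2.24% and 2.25%. Neither share overlapped between ages, but 2 against 2 libraries allow no two-sided exact permutation p below 0.3333, which both reached (0.394 after Benjamini-Hochberg adjustment over 13 library measures).

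Specific regions were narrow and came from the weaker part of each list. The median width was 203 bp (quartiles 145 and 310) for E15-only, 158 bp (118 and 278) for E17-only and 443 bp for regions in all 4 lists. E15-only regions had their median at percentile 22.7 of −log10 q in both E15 lists. E17-only regions had theirs at percentile 31.5 in E17 replicate 1 and at 26.0 in E17 replicate 2. Regions in all 4 lists had medians from 64.9 to 66.0. Above the middle of both lists of their age were 123 E15-only regions (2.91%) and 368 E17-only regions (8.78%), beside 194 (2.22%) of the regions in mixed pairs. The firm end of the comparison was therefore small in both directions, and for E15 its share was near that of the mixed pairs.

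**Figure D2:**
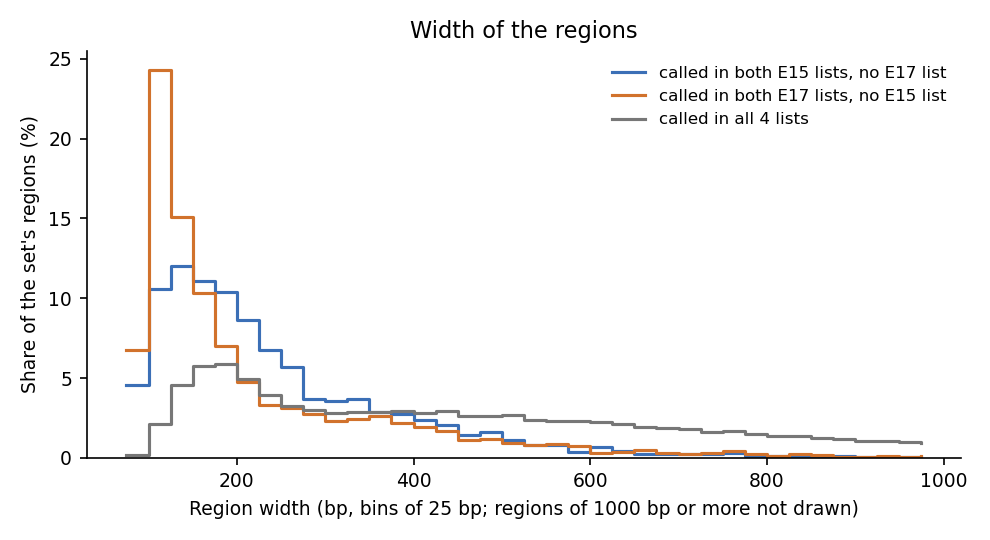
Width of E15-only (blue), E17-only (orange) and all-list regions (grey), as the share of each set's regions (y axis) in bins of 25 bp (x axis). E17-only regions peak at the narrowest widths (median 158 bp), E15-only regions are somewhat wider (203 bp) and regions of all 4 lists spread far to the right (443 bp).

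The strongest specific regions differed in kind between the ages. Of the 12 strongest E15-only regions, 8 were 75 to 81 bp wide, had no peak in any complete E17 list and were called in 5 or 6 of the 6 day 6 lists. The strongest lay inside Immp2l, which encodes a mitochondrial inner membrane protease subunit. It was 76 bp wide, with −log10 q of 46.4 and 55.8 and folds of 22.8 and 25.6 in E15 replicates 1 and 2. The next lay 313718 bp from Fam241a and 609229 bp from Map3k7, and others lay near Ccng2, Chst11 and Mkx, inside Bbox1 and 224974 bp from Cenpw. In all, 51 E15-only and 5 E17-only regions were at most 85 bp wide. Peaks of that width made up 7.07% and 6.36% of the E15 lists, 1.77% and 1.06% of the E17 lists and 19.96% to 26.9% of the day 6 lists. That share did not overlap between E15 and E17 (exact permutation p = 0.3333). The narrowest peak was 72 and 75 bp wide in E15 replicates 1 and 2, 84 and 79 bp in E17 replicates 1 and 2 and 64 to 74 bp in the day 6 lists. E17 replicate 1 thus held no peak as narrow as these 8 regions. The part of this width limit, which differs by library, in the strongest E15-only regions was not tested.

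The other 4 of the 12 were 156 to 385 bp wide, inside Wdpcp and Grid1, 86751 bp from Tent5a and 258797 bp from Slc30a5. The complete list of E17 replicate 2 held a peak at each. The 12 strongest E17-only regions were 118 to 312 bp wide. They lay near Ggt7, Ankrd46 and Npas4, 110841 bp from Hmga2 (an embryonic chromatin protein), and inside Gtf2a2, Ewsr1, Ddx6 (an RNA helicase), Cald1, Rnf212b, Zfp638, Snx12 and Arhgap29. Their −log10 q ran from 10.2 to 12.2 in E17 replicate 1 and from 17.7 to 23.2 in E17 replicate 2. None of these 24 regions was at a gene boundary.

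The complete lists show how many absences were peaks at any rank below the length limit. Of the 4233 E15-only regions, 3404 (80.4%) had a peak in the complete list of E17 replicate 2. None had one in E17 replicate 1, whose list was not shortened, so that 0 is given by the rule. This left 829 (19.6%) with no peak in any complete E17 list. Of the 4190 E17-only regions, 28.5% and 21.2% had a peak in the complete lists of E15 replicates 1 and 2, and 2549 (60.8%) had none in either. The 2 sets were equal in number at equal list length but not by this measure, and the lists that absences were looked up in differed in length, with E17 replicate 2 the longest at 151646 peaks.

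The place of the specific regions turned with the list length, a pattern followed over more lengths after the values at 20000 peaks had been seen. Among the 5000 strongest peaks, 59.5% and 60.3% lay at gene boundaries in E15 replicates 1 and 2, against 30.7% and 25.1% in E17 replicates 1 and 2. Among the 20000 strongest the shares were 37.9% and 38.8% against 30.2% and 26.2%. At the full equal length they met at 17.9%, 18.0%, 18.2% and 17.4%. In all 4 lists gene boundaries thus had a larger share among the strongest peaks than at full length, and more so in E15. The ages did not overlap at the lengths tried from 5000 to 60000. At 60000 they nearly met, with 21.91% and 22.39% in E15 against 21.88% and 20.89% in E17. At 20000 the exact permutation p is the 0.3333 that this design cannot go below. Median peak width was 308 and 300 bp in E15 against 211 and 233 bp in E17 among the 20000 strongest. From 40000 peaks on the ages overlapped, with 263 and 258 bp against 217 and 267 bp at 40000, and E17 replicate 2 had the widest peaks.

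**Figure D3:**
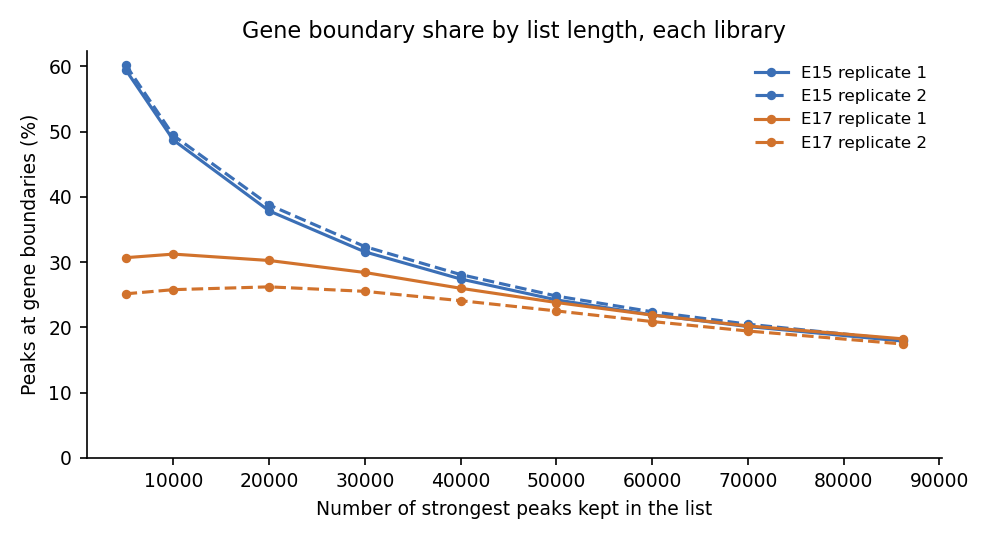
Share of peaks at gene boundaries (y axis) against the number of strongest peaks kept (x axis), 1 line per library (E15 blue, E17 orange; replicate 1 solid, replicate 2 dashed). The E15 lines start near 60% at 5000 peaks and fall, the E17 lines start at 30.7% and 25.1%, and all 4 meet at 17.4% to 18.2% at the full length.

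With lists of 20000 peaks, 2311 of 30742 regions were E15-only (7.52%) and 2325 E17-only (7.56%), and 2022 lay in mixed pairs. Of these E15-only regions 55.6% were at a gene boundary and their median width was 555 bp, against 8.39% and 174 bp for E17-only regions. Nearly all were called at both ages in the longer lists: 98.1% of the E15-only regions had a peak in both E17 lists of full length, and 92.9% of the E17-only regions in both E15 lists. All 6 day 6 lists called 51.6% of the E15-only and 1.33% of the E17-only regions. At the full equal length they called 1.25% and 0.0716%, and 17.0% of the regions called in every embryonic list. No share over all regions is given at 20000 peaks, and the sets were not matched for place or width. The part of the boundary share in this contrast was not tested. With 20000 peaks the comparison therefore ranks shared peaks. Boundary peaks stood higher in the E15 lists, and narrow peaks away from boundaries higher in the E17 lists.

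Genes on the lists that shifted this way were looked up after the shift had been seen. At 20000 peaks 30 E15-only regions lay at the boundary of 29 listed genes, and 4 E17-only regions at that of 4. Over all genes it was 1285 against 195 boundary regions, a split of similar size. The former included AP-1 and immediate early genes: Fos, Fosb, Fosl2, Jun, Jund and Atf3. The Fos boundary region (972 bp) was at percentiles 87.5 and 86.7 of −log10 q in the E15 lists of full length and at 61.1 and 54.4 in the E17 lists. The Jun region (1359 bp) was at 92.0 and 87.1 against 71.6 and 68.0. The rule fixes this gap, since a region counts as E15-only here when its peaks rank among the 20000 strongest in both E15 lists and in neither E17 list, so the percentiles of these genes are descriptions. Both boundaries were called in all 4 lists.

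Others in the group were the Wnt mediators Ctnnb1 (percentiles 90.2 and 78.6 against 65.4 and 52.9) and Tcf7l2, the NF-kB subunits Rel and Rela, the interferon regulatory factors Irf1 and Irf8, and the cell cycle inhibitors Cdkn1b and Cdkn2c. The Fgf receptor Fgfr2, its inhibitors Spry1 and Spry2 and the Notch ligand Jag1 were there too, as was Ppia from the housekeeping list. The 4 genes on the E17 side, by the same rule, were Krt14, Gfi1b, Fgfr1 and Smad1. The region at Krt14, a keratin of basal epithelium, was 207 bp wide and stood at percentiles 55.2 and 13.4 in E15 and at 77.0 and 82.7 in E17. That at Gfi1b, a tuft cell regulator, was 120 bp wide and stood at 74.8 and 48.9 against 95.6 and 90.7.

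The day 6 libraries took no part in choosing the regions. They are 2 libraries each of the TEC samples labelled mTEC1, mTEC2 and mTEC4, also wild type C57BL/6. E15-only regions were called again more often than E17-only regions in 6 of 6. In mTEC4 replicates 1 and 2 the shares were 5.72% and 10.7% of E15-only against 1.74% and 3.84% of E17-only regions. In mTEC1 they were 7.56% and 18.6% against 2.20% and 7.54%, and in mTEC2 32.3% and 10.9% against 15.2% and 3.39%. The mean was 14.3% ± 9.88 (SD, n = 6) for E15-only and 5.65% ± 5.11 for E17-only regions, a difference of -8.65 points (E17-only minus E15-only), with an exact two-sided sign-flip permutation p of 0.03125, the smallest that 6 libraries allow. This p is about the 6 day 6 libraries, taken as separate units although they are 2 of each label. It holds no spread between embryonic replicates. No day 6 list called 54.7% of E15-only regions, 75.01% of E17-only and 18.4% of those in all 4 lists.

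**Figure D4:**
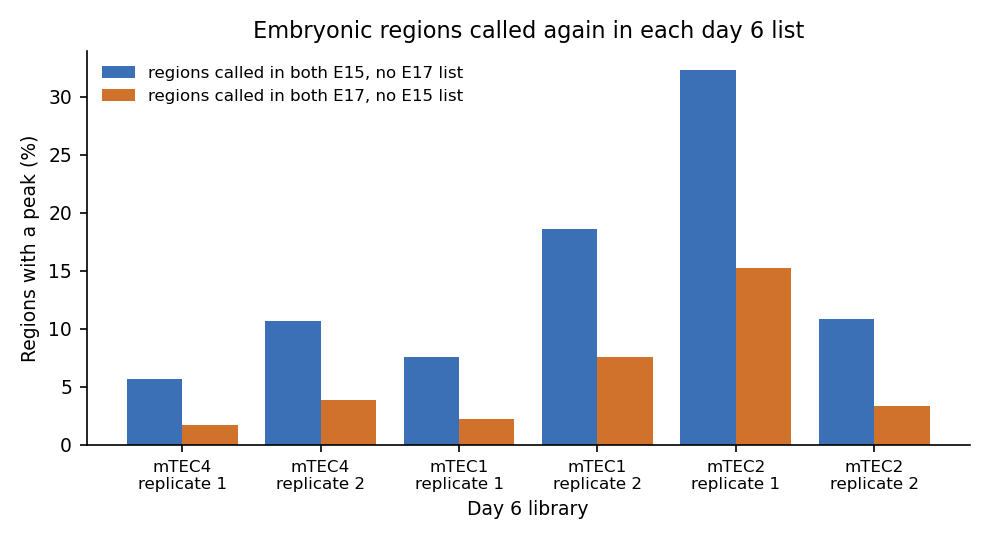
Share of E15-only (blue) and E17-only (orange) regions with a peak in each of the 6 day 6 lists (x axis), in percent (y axis). The blue bar is the taller in every library, from 5.72% against 1.74% to 32.3% against 15.2%.

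The difference was as large among regions of 150 to under 250 bp (14.5% ± 9.19 against 5.11% ± 4.70, n = 6, p = 0.03125 by the same exact test), and among those with no peak in the complete lists of the other age (18.4% ± 8.51 against 5.05% ± 4.45, exact p = 0.03125). With the day 6 lists cut to the shortest of the 6, the shares were 7.93% ± 3.33 and 2.65% ± 1.34 and the difference -5.29 points (n = 6, exact p = 0.03125). The difference rested on embryonic libraries and on the rule for a call. Defined without E15 replicate 2, the regions differed by -1.05 points (exact p = 0.0625), and without E17 replicate 2 by -5.28 points (0.188). Without E15 replicate 1 or E17 replicate 1 it was -2.92 and -13.2 points (exact p = 0.03125 in both). Where peaks had to cover at least 50 percent of a region, the difference was -0.775 points (exact p = 0.688).

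Genes were attached to regions as the nearest protein-coding gene within 100 kb. Of 18311 genes with any region, 2635 (14.4%) had an E15-only and 3001 (16.4%) an E17-only region. Both kinds lay at 712 genes, which is 27.0% of the first group and 23.7% of the second. The genes with most specific regions were mostly long. E15-only regions were most frequent at Magi2, a scaffold protein of cell junctions, with 9 of its 51 regions. Adgrl3, an adhesion receptor, had 8 of 49, and Tox, a nuclear protein known from T cell development, 6 of 24. Foxn3, a forkhead repressor, Tenm3 and Macrod2 had 6 each, and Sema3a (a guidance ligand), Cntnap2, Amot, Egln3, Celf2 and Slc4a4 had 5 each. Egln3, a prolyl hydroxylase that acts on HIF, was the shortest of these at 24.9 kb.

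Among E17-only regions, Auts2 had 8 of 99, Tenm4 7 of 83 and Lpp, a protein of focal adhesions, 6 of 55. Mbp, Dst (the cytoskeletal linker dystonin), Lmnb1 (lamin B1), Ksr2, Ttc28 and Rora (a nuclear receptor) had 5 each, and Dlgap2 and Tmem132c 4 each. The highest count was at Gm52481 on the Y chromosome, with 10 of 35 regions. It made up 10 of the 11 E17-only regions of that chromosome, and 9 of the 10 had no peak in either complete E15 list. The Y chromosome held both kinds, with 10 E15-only and 11 E17-only regions of 155 (6.45% and 7.10%).

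Genes that define TEC had similar numbers of regions at both ages. Foxn1 had 5, 6, 6 and 8 regions in E15 replicates 1 and 2 and E17 replicates 1 and 2. Aire had 2, 3, 2 and 2, Psmb11 1 in each, Ccl21a 6, 6, 7 and 6, Cd40 3, 4, 4 and 4, Dll4 4, 2, 4 and 2 and Ccl25 9, 8, 7 and 8. None of these 7 genes had an E15-only or E17-only region. Trp63, the regulator of stratified epithelium, had 17, 20, 19 and 18 regions, of which 1 was E15-only and 2 were E17-only. Tnfrsf11a had 16, 15, 16 and 11, with 1 of each. Pou2f3, the master factor of tuft cells, had 8, 8, 8 and 11, with 1 E17-only region of 104 bp inside the gene (−log10 q 5.36 and 11.6). That region had no peak in either complete E15 list and in none of the 6 day 6 lists.

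Across 22 gene lists of 363 genes, 343 genes had a region, 77 (22.4%) had an E15-only region and 76 (22.2%) an E17-only region. Over all 18311 genes with a region, these gene shares were 14.4% and 16.4%. A gene with more regions has more places for a specific one, and region number was not matched. By regions, the listed genes held 107 E15-only and 90 E17-only among 2738, and all genes 3441 and 3752 among 107070. Lists are read against the share over all regions within 100 kb of a gene, 3.21% E15-only and 3.5% E17-only. Counts per list were small, and leaving out a library or changing the list length turned the order of the 2 ages in at least 1 setting for 20 of the 22 lists.

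**Figure D5:**
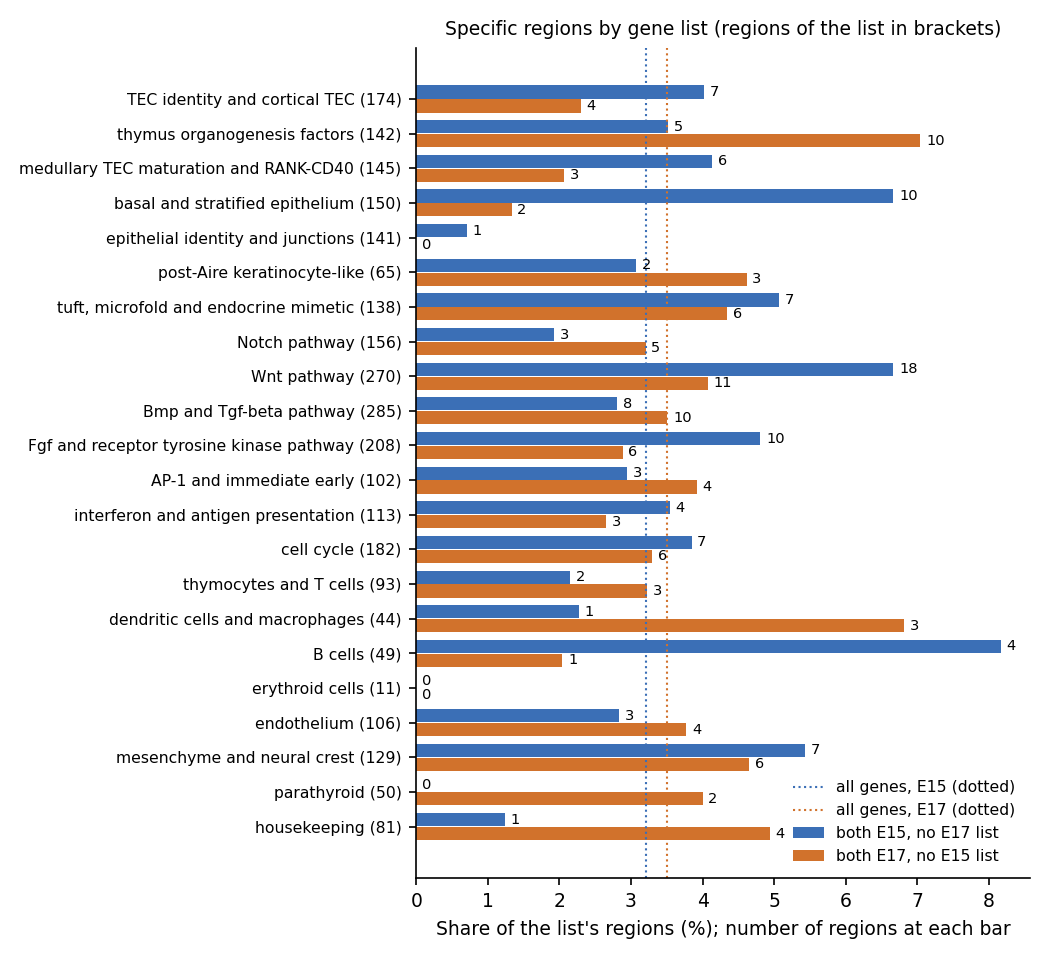
Share of each gene list's regions (x axis, percent) that were E15-only (blue) or E17-only (orange), with the number of regions at each bar, the list's regions in brackets and dotted lines at the shares for all genes (3.21% and 3.5%). The basal list has 10 E15-only against 2 E17-only regions and the organogenesis list 5 against 10, and most lists hold under 10 of either kind.

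Thymus organogenesis factors had 5 E15-only and 10 E17-only regions among 142 (3.52% and 7.04%). All 10 E17-only regions lay at 3 genes. Pax1, a factor of the pharyngeal pouch, had 4 of its 24 regions E17-only and 2 E15-only. One E17-only region lay inside the gene (116 bp, −log10 q 4.67 and 6.57 in E17 replicates 1 and 2), and the firmest lay 56364 bp away (167 bp, 7.12 and 7.55, with no peak in the complete E15 lists). Wnt4, a Wnt ligand of thymic epithelium, had 4 of 18, between 9055 and 90254 bp from the gene. The nearest was 134 bp wide, with −log10 q of 2.70 and 12.01. Fgf8, a ligand of pharyngeal development, had 2 of 3, 18318 and 19835 bp away, both with no peak in the complete E15 lists. Eya1, a pharyngeal factor, had 1 E15-only region, where the complete list of E17 replicate 2 held a peak. With 20000 peaks the order of the list turned, to 4 E15-only and 1 E17-only region.

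Basal and stratified epithelium genes had 10 E15-only and 2 E17-only regions among 150 (6.67% and 1.33%). Itga6, the integrin that anchors basal cells to laminin, had 4 of its 21 regions E15-only and none E17-only. The firmest, 35210 bp from the gene, was 309 bp wide with −log10 q of 6.23 and 6.81 and folds of 6.03 and 6.35. The 4 of them all had a peak in the complete list of E17 replicate 2. The laminin chains Lama3 and Lamb3, the desmosomal cadherins Dsc3 and Dsg3, the keratin Krt17 and Trp63 had 1 each. Both E17-only regions were at Trp63. In the complete lists the list had 2 E15-only and 3 E17-only regions, with 20000 peaks 2 and 4, and at −log10 q of at least 5 it had 1 and 6.

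The Wnt pathway had 18 E15-only and 11 E17-only regions among 270 (6.67% and 4.07%), at 12 and 7 of 22 genes. Among ligands, Wnt5a, Wnt5b and Wnt7b had 1 E15-only region each and Wnt4 its 4 E17-only regions. Among receptors, Fzd10 had 2 E15-only regions and 1 E17-only, Lrp6 2 E15-only, and Fzd7 and Lgr5 1 E15-only each. Tcf7l2, the factor that carries the signal to DNA, had 4 of 29 E15-only, and Lef1 1. Ctnnb1 and Axin2 had 1 of each kind. Of secreted inhibitors, Sfrp1 had 2 of each kind, and Dkk1 and Wif1 had 1 E17-only region each. In the complete lists the count was 7 E15-only and 9 E17-only, and the order turned in 8 of 12 settings.

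Genes of TEC identity and the cortex, among them ligands that TEC offer to thymocytes and their progenitors, had specific regions of both kinds. Il7, the cytokine of early T cell growth, had 3 of 16 regions E15-only and 1 E17-only, and Kitl and Cxcl12 had 1 E15-only each. The Cxcl12 region lay 14492 bp from the gene (114 bp, −log10 q 5.07 and 3.94), with a peak in the complete list of E17 replicate 2. Ly75, an endocytic receptor of cortical TEC, had 1 of each inside the gene, and Cd83 and Enpep had 1 E17-only each. The list of TEC identity and cortical genes had 7 E15-only and 4 E17-only regions of 174 (4.02% and 2.30%).

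Medullary maturation genes had 6 and 3 of 145 (4.14% and 2.07%). E15-only regions lay at the chemokine gene Ccl19, at the costimulatory ligands Cd80 and Cd86, inside the class II transactivator gene Ciita and inside Tnfrsf11a, and near Cldn4. E17-only regions lay at Tnfrsf11a and at Traf3, an inhibitor of the noncanonical NF-kB pathway, among others. Tuft, microfold and endocrine genes had 7 and 6 of 138. Dclk1, Alox5, Ptgs1, Gp2, Ccl20 and Sox9 held the E15-only regions, and Pou2f3, Gfi1b, Trpm5 (the tuft cell ion channel), Foxa1, Tnfaip2 and Alox5 held 1 E17-only region each.

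Receptor tyrosine kinase genes had 10 E15-only and 6 E17-only regions of 208. Of the former, Igf1r had 3, all inside the gene, Egfr 2 and the phosphatase Dusp6 2. The firmest at Igf1r was 136 bp wide (−log10 q 6.55 and 7.23) and was called in 3 day 6 lists. The Notch pathway had 3 and 5 of 156, with Notch2 (2) and Notch3 on the E15 side and Rbpj (2), Hey1, Jag1 and Notch1 on the E17 side. At Rbpj, the DNA-binding partner of Notch, the region inside the gene was 96 bp wide with −log10 q of 4.03 and 17.5. Bmp and Tgf-beta genes had 8 and 10 of 285, with 3 of the E15-only regions at Smad4. Cell cycle genes had 7 and 6 of 182. Cdk6, the G1 kinase, had 5 of 21 regions E15-only and none E17-only, of which 3 lay inside the gene, and the complete list of E17 replicate 2 held a peak at 4 of the 5.

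Lists of other cell types held shares on either side of those over all genes. Mesenchyme genes had 7 E15-only and 6 E17-only regions of 129 (5.43% and 4.65%), both above 3.21% and 3.5%, and B cell genes 4 and 1 of 49 (8.16% and 2.04%). Macrophage and dendritic cell genes had 1 and 3 of 44 (2.27% and 6.82%), endothelial genes 3 and 4 of 106 (2.83% and 3.77%) and thymocyte and T cell genes 2 and 3 of 93 (2.15% and 3.23%). Erythroid genes had 0 and 0 of 11. All E15-only and E17-only regions of the B cell list were at Ebf1, a factor that stromal cells use too. In the mesenchyme list Zeb1 had 3 E15-only and Twist2 3 E17-only regions. Parathyroid genes, which mark the other organ of the pharyngeal pouch, had 0 and 2 of 50, at Casr and Cd9.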

How the data were processed

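Open chromatin was measured by ATAC-seq in sorted TEC, and the authors deposited broad peaks, 1 list for each library. The submitters' processing notes name cutadapt, Bowtie2, Picard, MACS2 and build mm10; their order, versions and any shift of read ends are not given in the sources used here. Each deposited peak has a score, a fold enrichment (a ratio), a −log10 p-value and a −log10 q-value of its own library, all the authors' values. Peaks were called per library and depth is unknown, so precision could not be derived from counts. Lists were cut, joined and annotated with Python 3.11.15, pandas 2.3.3, numpy 2.4.6 and SciPy 1.17.1, and the code was tested on simulated data. Genes are RefSeq protein-coding genes of GRCm38.p6, and promoter sequences came from RefSeq's table (17491 genes). Motifs were searched in promoters only; sequences of other regions were not used here. Named genes were always Foxn1, Aire, Psmb11, Ccl21a, Pou2f3, Trp63, Tnfrsf11a, Cd40, Dll4 and Ccl25, and for each age the 12 genes with most specific regions, the 12 strongest regions and up to 15 listed genes with most regions; others are named as list members or as chosen after their values were seen. The members and lists were chosen with earlier results of these data known. Library measures were compared by exact permutation and day 6 shares by exact sign flips. Alternatives covered list length, ranking, a stricter q, gap joining, coverage of the region, gene distances and each library left out. The regions of 150 to under 250 bp, the replicate block, the boundary share by list length and its listed genes were added after seeing the data. A few named genes are not reported here.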

Additional observations from a re-analysis of the deposited data

How the results depend on the processing

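The number of E15-only regions (4233) and E17-only regions (4190) moved with the lists. Complete lists gave 2062 E15-only regions, the 50000 strongest peaks 2813, the 20000 strongest 2311 and 2325 E17-only, and −log10 q of at least 5 gave 704 E15-only. Absence judged in the complete lists left 829 and 2549, and a call on at least 50 percent of the region gave 6468 E17-only. Without 1 library a single list stood for its age, and the counts ran from 7722 to 12381 and from 8063 to 13479.

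Boundary shares of E15-only and E17-only regions were 55.6% and 8.39% at 20000 peaks, 15.2% and 8.27% at 50000, 17.2% and 8.21% at −log10 q of at least 5 and 6.80% and 12.8% with 50 percent coverage. They were 8.57% and 15.4% with a boundary of 2500 bp, 3.42% and 3.44% with 500 bp, and 5.30% for E17-only regions absent from the complete lists. Without 1 library they ran from 4.65% to 8.38% and from 5.29% to 7.33%. Median widths were 555 and 174 bp at 20000, 292 and 162 bp at 50000, 250 and 183 bp at −log10 q of at least 5, 172 and 164 bp in complete lists, 157 and 137 bp with absence in complete lists and 213 and 238 bp with 50 percent coverage. Without 1 library they ran from 113 to 238 bp and from 109 to 179 bp.

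Listed genes with an E15-only region fell from 77 to 43 in complete lists, 19 with absence in complete lists and 16 at −log10 q of at least 5, and E17-only from 76 to 47 at 50000 and 41 at 20000. Without 1 library they ran from 116 to 162 and from 120 to 172. The basal list's 10 E15-only regions became 2 in complete lists, 5 at 50000, 2 at 20000, 1 at −log10 q of at least 5 and 2 with absence in complete lists. Its 2 E17-only regions became 4 at 20000, 6 at −log10 q of at least 5, 1 with absence in complete lists, 5 with 50 percent coverage, 1 within 25 kb and 1 ranked by fold. Without 1 library they ran from 12 to 18 and from 4 to 12.

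The day 6 difference was -0.775 points (p = 0.688, exact sign flips) with 50 percent coverage and ran from -13.2 to -1.05 without 1 embryonic or day 6 library. Without a day 6 library the smallest exact p is 0.0625. The E17 minus E15 difference in median peak width, 21.0 bp, was -82.0 bp at 20000 peaks and ran from -11.0 to 53 bp without 1 library. That in boundary share, -0.140 points, ran from -0.532 to 0.253, and E17 replicate 2 decided both signs.

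The replicate numbers of E15 and E17 are shared, but nothing says that they pair samples. With a replicate block the differences were 21.0 bp in width (exact p = 1), -0.140 points at boundaries (1) and 0.514 points inside genes (0.5, the smallest a block of 2 pairs allows). Motif windows in regions were not run, as no genome was used here. The cause of each move was not tested. Unknown depth and 2 libraries an age limit the comparison.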
